A study of Drosophila melanogaster with 9 samples.

Results

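The genes examined here encode the basic machinery of transcription and some of its tissue-specific relatives: subunits of Mediator, of RNA polymerases I, II and III, the general factors TfIIA to TfIIS, the TAFs, and the TATA-binding protein Tbp with its Trf relatives. They were taken by symbol, as all genes named MED, Polr1 to Polr3, TfII, Taf, Tbp or Trf, leaving out Taf5 and Taf6, with the brighter probe set kept where a gene had several. In all, 63 of the 10844 genes with a probe set of their own were chosen this way: 20 Mediator genes, 6 of RNA polymerase I, 5 of RNA polymerase II, 7 of RNA polymerase III, 9 TfII genes, 11 TAFs and 5 of the Tbp and Trf group. The current gene table lists 82 such symbols, and the other 19, among them Polr2A and Polr2B, the catalytic core of RNA polymerase II, were not analysed here.

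The measurements came from testes of adult Drosophila melanogaster males of 3 genotypes, 3 Affymetrix arrays each, kept at 25 °C and hand-dissected in the first day after eclosion. The first mutant was labelled comr[z1340] cn[1] bw[1] in its title and genotype but aly[5] in its source name, so it is called labelled comr throughout. The second mutant was w ; can[3] red[1] e[1], and the control was red[1] e[1], the chromosome on which can[3] was made. Both mutants belong to the meiotic arrest class, in which spermatocytes stop before the divisions and spermatids do not form. The arrays labelled comr do not share the red e background, and that difference in background cannot be told apart from the mutation. The can genotype also names w, which the control genotype does not, and this too cannot be told apart from the mutation.

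RNA polymerase II cannot find a promoter alone. In general, TFIID, built of Tbp and the TAFs, recognises the core promoter, TfIIA and TfIIB hold it there, TfIIF brings the polymerase, and TfIIE and TFIIH open the DNA, while Mediator relays the signal of bound activators. In Drosophila spermatocytes a second set of TAFs, the testis TAFs, works beside the general ones, and can itself is one of them (a Taf5 homolog), whereas comr and aly act in another testis complex.

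Every value below is the deposited array signal, which the authors had scaled to a common level on each array. The background floor of these arrays was a signal of 20.3, the highest value of any of the 23 control probe sets without a spiked target. Changes are log2 differences of signal plus 16, so they understate the change of dim genes, and a gene was called higher or lower at an adjusted p under 0.05 and a change of at least 2-fold, with p-values adjusted over the 9776 probe sets tested. Where no array of the dimmer group exceeded the floor, the ratio of signals is a lower bound and is written "at least". No probe set's level can be set against that of another. Arrays of 1 group correlated at 0.972 to 0.987. The comr probe set read 34.7, 30 and 35.7 in arrays labelled comr, 68.7, 49.1 and 56.6 in can and 13.9, 14.2 and 23.8 in control, so it was not lost from the arrays that carry its name. The can probe set read 174.7, 165.4 and 149.0 in arrays labelled comr, 41.4, 27.1 and 45.4 in can and 25.3, 28.1 and 41.9 in control. The aly probe set was called higher in arrays labelled comr than in control and in can. Neither comr nor aly was lower there than in control, so these readings cannot decide between the names.

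With the deposited scaling, the change was above 0 in 56 of the 59 tested transcription machinery genes in each mutant. Of all tested probe sets 60.4% had a change above 0 in arrays labelled comr and 62.9% in can. Fewer genes passed the threshold of a call, counted next as having risen or fallen. In arrays labelled comr 42 of 59 tested genes rose, against 28.8% of all tested probe sets, and 1 (Trf4) fell, against 16.5%. In can testes 24 of 59 rose, against 20.7% of all probe sets, and Trf4 fell again, against 12.9%. The median change of the tested genes was 1.38 in arrays labelled comr and 0.96 in can, where all probe sets stood at 0.34 in arrays labelled comr and 0.29 in can. With genes at background set to their bounds those medians were 1.31 for arrays labelled comr and 0.92 for can. Both comparisons use the same 3 control arrays, so they are not independent of each other. In such bulk testis RNA, fewer cells of a type and less RNA per cell cannot be told apart.

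The 59 tested genes do not include Taf1, Taf10b, TfIIB and TfIIS, which lay at or under the floor on all 9 arrays; their highest signals were 10.5 for Taf1, 15.9 for Taf10b, 17.9 for TfIIB and 9.0 for TfIIS. Another 10 genes passed the filter on low signal although every control array lay at or under the floor (MED1, MED14, MED16, Polr1B, Polr3A, Polr3B, Polr3C, Polr3I, Taf10 and Trf5). These entered through their mutant arrays, so the counts above describe the genes that could be measured and not the whole set of 63.

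**Figure D1:**
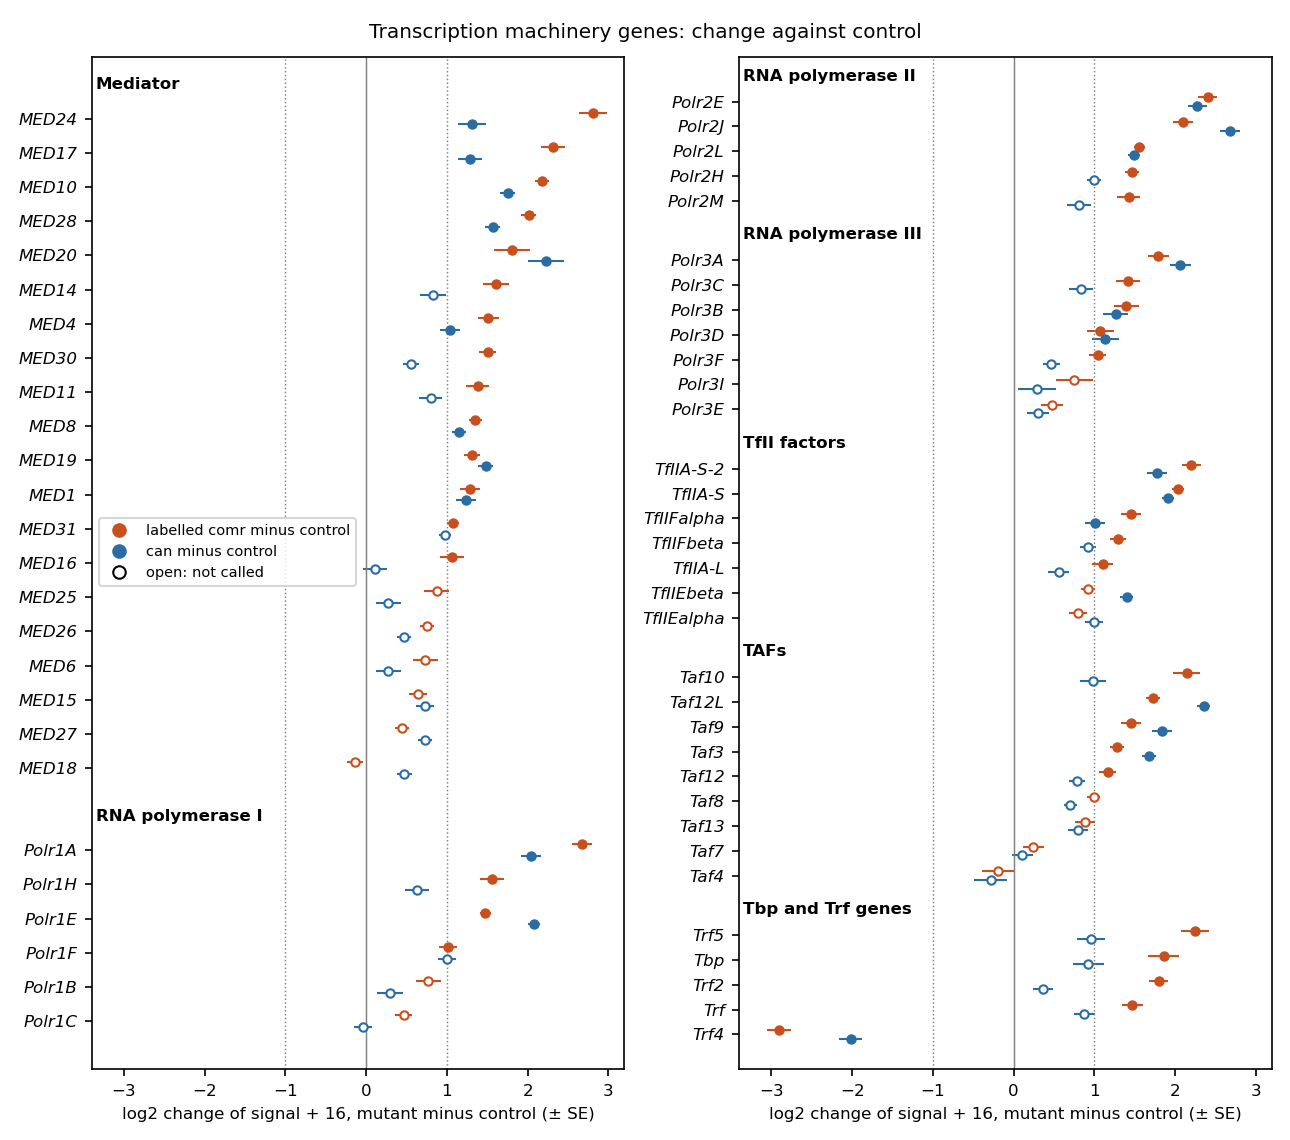
Change of each tested transcription machinery gene (rows, by class) in log2 of signal plus 16 with its SE, labelled comr minus control and can minus control, 3 arrays a group; filled points were called, and dotted lines mark 2-fold. Nearly all points lie right of 0 with the deposited scaling. Of all tested probe sets 60.4% did for labelled comr and 62.9% for can. Trf4 lies far left in both mutants, at background in arrays labelled comr and at -2.02 in can.

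How high these genes stand depends on how the arrays are levelled. When each array was centred on 24 ribosomal protein genes in place of the deposited scaling, the all-probe median moved to -0.45 in arrays labelled comr and to -0.63 in can testes. The transcription machinery genes then stood at a median of 0.52 in arrays labelled comr, with 15 higher and 2 lower, and at -0.04 in can, with 6 higher and 3 lower. Changes above 0 numbered 47 of 59 in arrays labelled comr and 27 of 59 in can. The share called higher was 25.4% in arrays labelled comr beside 9.35% of all probe sets, and 10.2% in can beside 2.64%. Of all probe sets, 32.8% were called lower in arrays labelled comr and 34.1% in can. With quantile, median or spiked-control scaling, 64.4% to 83.1% of the genes were higher in arrays labelled comr and 33.9% to 49.2% in can. Under each of the 5 scalings the share of these genes called higher exceeded that of all probe sets in both mutants. By class, the median stayed above 0 in arrays labelled comr under ribosomal protein centring (0.24 to 0.85), whereas in can it was below 0 for Mediator, RNA polymerase I, TfII genes, TAFs and the Tbp and Trf group (-0.17 to -0.03).

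**Figure D2:**
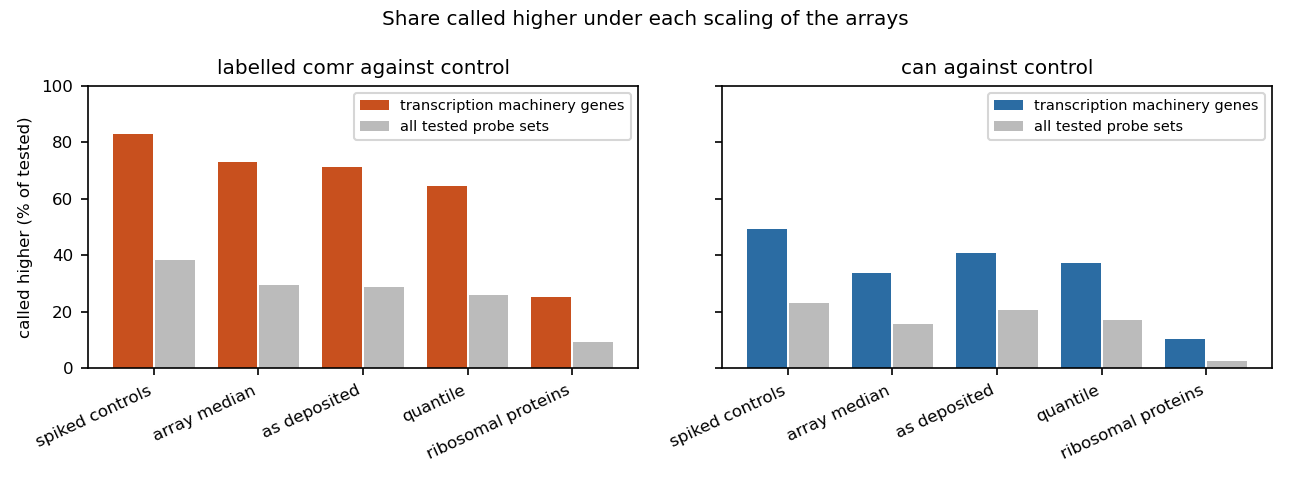
Share of tested transcription machinery genes (coloured bars) and of all tested probe sets (grey bars) called higher, in percent, under 5 scalings of the arrays, for labelled comr against control (left) and can against control (right). Under ribosomal protein centring the share of the genes is 25.4% for labelled comr, above the grey bar at 9.35%, and 10.2% for can, above the grey bar at 2.64%.

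Several other features of the arrays moved with genotype, and their part in these differences was not tested. The GAPDH 3' to 5' signal ratio, a sign of RNA integrity, was 5.27 to 6.47 in arrays labelled comr, 4.48 to 7.02 in can and 2.28 to 2.87 in control, without overlap between mutant and control, while the actin ratio was 2.24 to 2.52 in arrays labelled comr, 2.41 to 2.87 in can and 2.51 to 2.68 in control. The eIF4a ratio was 5.77 to 7.41 in arrays labelled comr, 3.29 to 4.26 in can and 4.99 to 5.55 in control, above control in the first mutant and below it in the second. Early germline markers rose in 4 of 6 cases in arrays labelled comr and 3 of 6 in can (stai fell in both), and their summed signal was 886 to 912 in arrays labelled comr, 505 to 584 in can and 443 to 463 in control. All 4 tested haemocyte markers rose in arrays labelled comr and 2 in can, with summed signals of 591 to 669 in arrays labelled comr, 406 to 477 in can and 177 to 303 in control; the defining markers eater and NimC1 lay at or under the floor on all arrays. Of 6 tested cyst and hub cell markers none was called by limma in either mutant (at an unadjusted p under 0.05, 1 was higher in arrays labelled comr and 2 in can), with sums of 231 to 242 in arrays labelled comr, 286 to 291 in can and 224 to 251 in control; tj and upd1 lay at or under the floor throughout. Spermatocyte markers rose in 5 and fell in 2 of 7 cases in arrays labelled comr and rose in 2 and fell in 2 in can, and their summed signal was 3427 to 3513 in arrays labelled comr, 2786 to 2962 in can and 4725 to 5010 in control. Muscle markers summed to 905 to 1132 in arrays labelled comr, 895 to 1007 in can and 678 to 792 in control, and 1 of 4 tested (TpnC73F) rose in can; Act88F and TpnC41C lay at or under the floor throughout. Fat body markers summed to 141 to 202 in arrays labelled comr, 305 to 392 in can and 401 to 526 in control, and 2 of 5 (apolpp and Tsf1) fell in arrays labelled comr. Summed accessory gland signal varied within every group, at 52.2 to 2038 in arrays labelled comr, 115 to 4046 in can and 615 to 4765 in control, and without the array highest for it in each group 41 transcription machinery genes were higher in arrays labelled comr and 24 in can.

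Mediator is a large coactivator built of head, middle and tail modules. Of its 20 measured genes 14 rose in arrays labelled comr, at a median change of 1.33, and 9 rose in can, at a median of 0.90 that turned to -0.03 under ribosomal protein centring. The rise was spread over the modules. In arrays labelled comr 4 of 6 head genes, 5 of 6 middle genes and 3 of 5 tail genes were higher. MED14 was counted with the tail. MED27, MED28 and MED30 were counted apart, and 2 of these 3 were higher. In can the counts were 3 of 6 head genes, 4 of 6 middle genes, 1 of 5 tail genes and 1 of the 3 counted apart. The tail count in can was near the share of all probe sets. For this and each later class, 28.8% of all probe sets were higher in arrays labelled comr and 20.7% in can. MED6, MED15, MED18, MED25, MED26 and MED27 were called in neither mutant, with changes of -0.14 to 0.87 in arrays labelled comr and 0.27 to 0.73 in can.

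MED24, a tail subunit, changed most in arrays labelled comr among the Mediator genes read above the floor on some or all control arrays. It read 233.9, 257.3 and 222.3 in arrays labelled comr, 67.0, 75.7 and 80.7 in can and 11, 32.1 and 20.7 in control. The groups did not overlap, with can in between, and 2 of 3 control arrays were above the floor. Its change was 2.81 ± 0.17 (SE) in arrays labelled comr (adjusted p 1.28e-08) and 1.32 ± 0.17 in can (adjusted p 2.21e-05). MED17, a core head subunit, followed the same order at 421.8, 379.6 and 456.3 in arrays labelled comr, 207.8, 204.9 and 179.5 in can and 89.3, 49.5 and 80.4 in control. Its change was 2.31 ± 0.15 in arrays labelled comr (adjusted p 2.37e-08) and 1.29 ± 0.15 in can (adjusted p 8.58e-06).

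MED20, another head subunit, ran the other way, with can brightest. It read 106.6, 110.9 and 138.6 in arrays labelled comr, 188.8, 163.1 and 143.0 in can and 8.7, 31.3 and 32.5 in control, and 1 control array lay under the floor. The change was 1.80 ± 0.22 in arrays labelled comr (adjusted p 9.48e-06) and 2.23 ± 0.22 in can (adjusted p 1.77e-06). The mutants themselves did not differ past the threshold (-0.43 ± 0.22, adjusted p 0.138).

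MED10, of the middle module, read 372.4, 395.1 and 390.3 in arrays labelled comr, 286.8, 253.4 and 313.7 in can and 78.1, 71.7 and 68.9 in control. MED28 read 361.7, 362.5 and 416.3 in arrays labelled comr, 250.4, 299.8 and 273.6 in can and 79.5, 84.1 and 82.3 in control. Both genes were several times brighter on every mutant array than on any control array. The changes of MED10 were 2.18 ± 0.091 in arrays labelled comr (adjusted p 2.96e-10) and 1.75 ± 0.091 in can (adjusted p 4.64e-09), and those of MED28 were 2.01 ± 0.091 in arrays labelled comr (adjusted p 5.98e-10) and 1.57 ± 0.091 in can (adjusted p 1.17e-08).

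MED14, the scaffold that joins the modules, read 73.6, 87.9 and 71.2 in arrays labelled comr, 28.6, 41.4 and 46.4 in can and 15.5, 18.9 and 10 in control, where all arrays were under the floor. It was at least 3.80-fold higher in arrays labelled comr; the bound in can was 1.87-fold and it was not called there. MED1, the middle subunit that nuclear receptors contact, was at least 2.73-fold higher in arrays labelled comr and at least 2.61-fold higher in can. MED16 of the tail read 42.6, 46.5 and 36.2 in arrays labelled comr and lay at or under the floor on every can and control array. MED4 was higher in can by 1.04 ± 0.12 (adjusted p 9.1e-06), but the call was lost without can replicate 1 (1.00) or control replicate 2 (0.90). It was also lost under quantile scaling, array median centring, ribosomal protein centring and an offset of 64.

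MED18 stood apart in the head module. It read 184.1, 191.4 and 214.1 in arrays labelled comr, 336.3, 317.1 and 275.3 in can and 234.6, 203.2 and 216.5 in control. Arrays labelled comr overlapped control (-0.14 ± 0.096, adjusted p 0.2), while can lay above both groups by under 2-fold (0.47 ± 0.096 against control, adjusted p 7.74e-04). Under ribosomal protein centring MED18 was called lower in arrays labelled comr, as were 32.8% of all probe sets. MED26 has a second probe set, which read 105.6, 133.1 and 72.5 in arrays labelled comr, 74.9, 61.7 and 59.3 in can and 45.3, 47.1 and 49.5 in control. Neither probe set of MED26 was called.

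Cdk8, CycC, kto (Med12) and skd (Med13) form the kinase module, which binds Mediator reversibly and in many settings restrains it. Its cyclin CycC read 247.9, 260.9 and 262.7 in arrays labelled comr, 85.3, 83.3 and 81.7 in can and 38.5, 47.8 and 41.2 in control, so arrays labelled comr lay far above the others. The change of CycC was 2.23 ± 0.094 in arrays labelled comr (adjusted p 3.28e-10) and 0.77 in can, which was under 2-fold. Cdk8 read 44.2, 31.2 and 52.8 in arrays labelled comr, against 8.1, 13.7 and 9.3 in can and 3.5, 4.1 and 11.9 in control, both at background. In contrast, kto was dimmer in every mutant array, at 101.0, 107.0 and 136.6 in arrays labelled comr, 126.9, 130.2 and 111.5 in can and 198.9, 228.5 and 209.4 in control. That difference passed the p threshold in both mutants (-0.81, adjusted p 2.85e-05, in arrays labelled comr and -0.72, adjusted p 1.04e-04, in can) but not 2-fold. The fourth gene, skd, was called in neither mutant.

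RNA polymerase I makes the large ribosomal RNA precursor. Of its 6 measured genes 4 rose in arrays labelled comr (median change 1.25) and 2 rose in can (median 0.81, or -0.16 under ribosomal protein centring). Polr1A, the largest subunit, read 350.6, 282.1 and 372.9 in arrays labelled comr, 206.7, 195.3 and 225.2 in can and 45.3, 40.5 and 31.4 in control. The groups were fully apart, at 2.67 ± 0.12 in arrays labelled comr (adjusted p 8.24e-10) and 2.04 ± 0.12 in can (adjusted p 1.89e-08), and Polr1A was among the genes called higher under all 5 scalings in both mutants. Polr1E, the counterpart of yeast Rpa49, had its highest values in can: 315.2, 298.3 and 316.5 in arrays labelled comr, 488.1, 472.3 and 477.6 in can and 96.2, 106.1 and 101.0 in control. Its replicates were tight, and it was higher by 1.48 ± 0.073 in arrays labelled comr (adjusted p 1.4e-09) and 2.08 ± 0.073 in can (adjusted p 2.15e-10).

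The small subunit Polr1H read 150.1, 149.9 and 193.0 in arrays labelled comr, 90.9, 67.9 and 76.8 in can and 36.5, 56.4 and 43.2 in control. It was higher in arrays labelled comr (1.56 ± 0.15, adjusted p 7.14e-07) and passed only the p threshold in can (0.63, adjusted p 0.0021). Polr1F was at the edge of the threshold, at 1.02 ± 0.11 in arrays labelled comr (adjusted p 2.37e-06), and the call was lost without labelled comr replicate 2 (0.99) or control replicate 1 (0.92). It was also lost under quantile scaling, ribosomal protein centring and an offset of 64. Polr1C, which polymerases I and III share, read 203.4, 210.8 and 197.7 in arrays labelled comr, 146.4, 136.7 and 135.1 in can and 142.6, 121.9 and 169.5 in control. Can and control overlapped for Polr1C, and under ribosomal protein centring it was called lower in can, as were 34.1% of all probe sets. Polr1B, the second-largest subunit, was near the floor in every group, at 28.1 to 32.8 in arrays labelled comr, 12.2 to 23.7 in can and 8.0 to 12.8 in control.

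All 5 measured RNA polymerase II genes rose in arrays labelled comr (median change 1.56) and 3 rose in can (median 1.49), and the medians stayed above 0 under every scaling tried, at 0.73 in arrays labelled comr and 0.32 in can with ribosomal protein centring. Polr2E, a small subunit common to the 3 polymerases, read 353.5, 365.4 and 370.1 in arrays labelled comr, 334.7, 325.8 and 330.8 in can and 44.3, 71.1 and 53.8 in control. Both mutants stood close together and far above control, at 2.40 ± 0.12 in arrays labelled comr (adjusted p 1.08e-09) and 2.28 ± 0.12 in can (adjusted p 3.86e-09). Polr2J, specific to RNA polymerase II, read 548.9, 566.2 and 672.4 in arrays labelled comr, 924.8, 989.1 and 792.7 in can and 108.5, 121.4 and 152.4 in control. Can was the brightest group throughout for Polr2J, and its change of 2.68 ± 0.12 (adjusted p 1.61e-09) was the largest rise in can among the genes read above the floor on all control arrays; in arrays labelled comr it was 2.10 ± 0.12 (adjusted p 7.12e-09).

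Polr2L, a further shared subunit, read 556.1, 593.0 and 592.2 in arrays labelled comr, 576.2, 543.2 and 541.8 in can and 179.4, 188.3 and 192.6 in control. It rose in both mutants, by 1.56 ± 0.069 in arrays labelled comr (adjusted p 4.97e-10) and 1.49 ± 0.069 in can (adjusted p 1.75e-09). Polr2H, the third shared subunit, was higher in arrays labelled comr (1.46) and just under 2-fold in can (0.99). Polr2M, the counterpart of Gdown1, which holds the polymerase away from TfIIF, was higher in arrays labelled comr (1.42) and not called in can (0.81).

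RNA polymerase III makes tRNAs, the ribosomal RNA called 5S and other short RNAs. Of its 7 measured genes 5 rose in arrays labelled comr (median change 1.07) and 3 in can (median 0.83); the medians stayed above 0 under ribosomal protein centring, at 0.24 in arrays labelled comr and 0.10 in can. Its 2 largest subunits were at background in control. Polr3A read 48.5, 50.5 and 51.2 in arrays labelled comr, 77.8, 57.3 and 58.0 in can and 3.4, 2.8 and 3.0 in control. It was at least 2.47-fold higher in arrays labelled comr (adjusted p 6.8e-08) and at least 3.14-fold higher in can (adjusted p 2.85e-08). Polr3B read 38.6, 40.9 and 48.8 in arrays labelled comr, 43.3, 28.4 and 42.0 in can and 5.5, 8.9 and 4.6 in control. It was at least 2.10-fold higher in arrays labelled comr (adjusted p 3.45e-06) and at least 1.83-fold higher in can (adjusted p 1.14e-05), and the mutants overlapped.

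Polr3C read 38.5, 32.5 and 35.4 in arrays labelled comr, 16.1, 15 and 24.5 in can and 2.9, 2.7 and 4.1 in control. It was under the floor on all control arrays and above it on 1 can array. It was at least 1.74-fold higher in arrays labelled comr (adjusted p 2e-06). The calls of Polr3C in arrays labelled comr and of Polr3B in can rest on control readings under the floor, since both bounds are under the 2-fold of the call. Polr3D read 117.5, 128.6 and 154.3 in arrays labelled comr, 115.7, 195.8 and 118.9 in can and 54.0, 56.0 and 54.4 in control. All mutant arrays lay above all control arrays, at 1.07 ± 0.17 in arrays labelled comr (adjusted p 7.03e-05) and 1.14 ± 0.17 in can (adjusted p 5.35e-05). Each of these calls for Polr3D rested on 1 array: without labelled comr replicate 3 the first was 0.97, and without can replicate 2 the second was 0.91. Both calls were also lost under quantile scaling, ribosomal protein centring and an offset of 64, and the call in can under array median centring too. Polr3F was higher in arrays labelled comr (1.04) and not called in can (0.47), and Polr3E and Polr3I were called in neither. The call of Polr3F was lost under quantile scaling, ribosomal protein centring and an offset of 64.

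Bdp1 and Brf belong to the factor that places RNA polymerase III on its genes. Bdp1 read 204.1, 227.4 and 226.8 in arrays labelled comr, 41.2, 53.1 and 49.9 in can and 58.1, 43.3 and 27.3 in control. Can overlapped control, and arrays labelled comr stood above both, by 2.03 against control and 1.88 against can. Brf read 65.4, 42.1 and 90 in arrays labelled comr, 42.6, 43.9 and 52.6 in can and 29.9, 7.4 and 27.1 in control, and was called higher in arrays labelled comr (1.15, adjusted p 0.00141) but not in can (0.79).

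Among the general factors TfIIA to TfIIS, 5 of 7 tested genes rose in arrays labelled comr (median change 1.29) and 4 of 7 in can (median 1.01, or -0.06 under ribosomal protein centring). TfIIA, which steadies Tbp on the promoter, is made from TfIIA-L and a small subunit with a pair of gene copies. The small subunit TfIIA-S read 1405.9, 1459.1 and 1588.4 in arrays labelled comr, 1441.6, 1373.9 and 1265.1 in can and 354.0, 325.9 and 369.1 in control. The mutants overlapped each other and not control, with changes of 2.04 ± 0.077 in arrays labelled comr (adjusted p 1.06e-10) and 1.91 ± 0.077 in can (adjusted p 5.93e-10). Its copy TfIIA-S-2 read 333.5, 316.2 and 324.3 in arrays labelled comr, 236.6, 265.7 and 213.5 in can and 55.9, 48.2 and 72.2 in control. It was higher by 2.20 ± 0.12 in arrays labelled comr (adjusted p 3.39e-09) and 1.78 ± 0.12 in can (adjusted p 4.31e-08). Probe sequences were not analysed here, so cross-reading between such copies, or between the TAF and Trf relatives below, was not tested.

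TfIIA-L rose less: it read 164.5, 154.4 and 154.7 in arrays labelled comr, 100.2, 97.2 and 113.0 in can and 57.9, 83.6 and 56.3 in control. Its change was 1.1 ± 0.13 in arrays labelled comr (adjusted p 4.6e-06) and 0.56 in can, under 2-fold. The call of TfIIA-L was lost under quantile scaling, ribosomal protein centring and an offset of 64. TfIIEbeta, of the factor that brings in TFIIH, had its highest values in can, at 187.8, 196.2 and 179.7 in arrays labelled comr, 263.7, 280.9 and 260.5 in can and 96.2, 94.3 and 85.2 in control. It was called higher in can (1.4 ± 0.083, adjusted p 1.48e-08) and stayed under 2-fold in arrays labelled comr (0.92, adjusted p 4.9e-07). Its partner TfIIEalpha lay just under the threshold in can (1.00) and at 0.80 in arrays labelled comr.

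TfIIFalpha, a subunit of the factor that escorts the polymerase, read 484.6, 502.6 and 565.9 in arrays labelled comr, 297.0, 402.8 and 439.4 in can and 182.2, 176.7 and 175.9 in control. All mutant arrays were above control, at 1.46 ± 0.12 in arrays labelled comr (adjusted p 2.29e-07) and 1.01 ± 0.12 in can (adjusted p 9.82e-06). The call in can was lost without can replicate 2 (0.96), can replicate 3 (0.90) or control replicate 3 (1.00), and the sign turned under ribosomal protein centring (-0.15). That call was also lost under quantile scaling, array median centring and an offset of 64. Its partner TfIIFbeta was higher in arrays labelled comr (1.29) and not called in can (0.92).

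TFIIH, the helicase and kinase factor that opens the promoter, is not named by these symbols. Of its 9 tested genes 7 rose in arrays labelled comr and 6 in can, at median changes of 1.99 in arrays labelled comr and 1.68 in can. Its helicase hay read 334.5, 337.7 and 361.6 in arrays labelled comr, 120.7, 119.8 and 114.4 in can and 18.3, 11.5 and 23.6 in control, and it was the 1 TFIIH gene called between the mutants.

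TAFs pair through histone folds to build TFIID. Of 9 tested TAF genes 5 rose in arrays labelled comr (median change 1.16) and 3 in can (median 0.79, or -0.15 under ribosomal protein centring). Taf10, whose counterparts in yeast and mammals pair with Taf3 and Taf8, read 88.3, 98.6 and 95.9 in arrays labelled comr, 39.6, 34.3 and 26.8 in can and 4.2, 14.6 and 9.1 in control. Control was at background, and Taf10 was at least 4.64-fold higher in arrays labelled comr (adjusted p 9.46e-08); in can the bound was 1.63-fold and it was not called. Taf10b, its paralog and neighbour on chromosome arm 2L, was at background in every group.

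The general Taf12 and its testis homolog Taf12L (rye) differed in which mutant was brighter. Taf12 read 92.3, 103.0 and 98.7 in arrays labelled comr, 75.6, 68.9 and 70.0 in can and 35.8, 36.4 and 32.4 in control. Taf12L read 993.2, 940.2 and 987.5 in arrays labelled comr, 1626.2, 1604.8 and 1328.5 in can and 270.9, 276.9 and 303.3 in control. For Taf12 the highest group was the one labelled comr, for Taf12L it was can, and no groups overlapped. Taf12L was higher by 1.72 ± 0.085 in arrays labelled comr (adjusted p 1.29e-09) and 2.35 ± 0.085 in can (adjusted p 2.58e-10), and Taf12 by 1.16 ± 0.10 in arrays labelled comr (adjusted p 3.44e-07) and, not called, 0.78 in can. The other testis TAFs on the array, can, nht, sa and mia, were all called higher in arrays labelled comr and nht, sa and mia in can.

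Taf9 and Taf3 also had can as their brightest group. Taf9, the partner of Taf6, read 174.9, 175.7 and 179.3 in arrays labelled comr, 279.1, 242.1 and 190.8 in can and 53.9, 49.8 and 59.5 in control. Taf3 read 346.3, 361.7 and 296.4 in arrays labelled comr, 456.5, 457.0 and 422.3 in can and 126.4, 129.5 and 129.4 in control. Neither gene had overlapping groups. The change of Taf9 was 1.45 ± 0.12 in arrays labelled comr (adjusted p 2.33e-07) and 1.83 ± 0.12 in can (adjusted p 3.94e-08), and that of Taf3 was 1.28 ± 0.086 in arrays labelled comr (adjusted p 2.69e-08) and 1.67 ± 0.086 in can (adjusted p 4.03e-09). Taf4, the partner of Taf12, read 14.7, 19 and 27 in arrays labelled comr, 22.2, 16.1 and 15.3 in can and 39.5, 19.4 and 19.3 in control, near the floor and overlapping throughout. A second probe set of Taf4 was under the floor on every array and was not tested. It read 15.8, 13 and 12.3 in arrays labelled comr, 14.3, 18.1 and 8 in can and 7.5, 8.6 and 7.7 in control. Taf7, Taf8 and Taf13 were called in neither mutant, and Taf8 was just under the threshold in arrays labelled comr (0.99).

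Tbp and the Trf genes moved in both directions. In arrays labelled comr 4 of 5 rose and Trf4 fell; in can Trf4 fell and the other 4 were not called, although each passed an unadjusted p under 0.05 upward. Tbp itself read 106.7, 97.1 and 113.1 in arrays labelled comr, 51.2, 63.4 and 32.5 in can and 11.8, 16.9 and 25.2 in control. Arrays labelled comr lay above all others, and 1 of 3 control arrays was above the floor. Tbp was higher by 1.86 ± 0.19 in arrays labelled comr (adjusted p 1.44e-06), and its change in can was 0.93 ± 0.19 (adjusted p 7.67e-04), just under 2-fold.

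Trf2, which serves TATA-less promoters including those of ribosomal protein genes, separated the mutants most clearly in this class. It read 627.4, 535.2 and 648.8 in arrays labelled comr, 186.5, 231.6 and 223.8 in can and 195.0, 145.2 and 150.1 in control. Can and control overlapped (0.36 ± 0.12, adjusted p 0.0177), whereas arrays labelled comr stood well above both (1.79 ± 0.12 against control, adjusted p 2.87e-08). Trf, which works with Brf at RNA polymerase III genes in Drosophila, read 216.5, 220.0 and 167.2 in arrays labelled comr, 138.5, 116.1 and 126.7 in can and 71.7, 62.4 and 52.7 in control. It was higher in arrays labelled comr (1.47 ± 0.13, adjusted p 3.19e-07) and at 0.87 in can. Trf and MED20 are adjacent genes on arm 2L, yet MED20 had can and Trf had arrays labelled comr as the brightest group.

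Trf4 was the only transcription machinery gene called lower against control with the deposited scaling. It read 1.2, 2.4 and 1.6 in arrays labelled comr, 13.2, 14.2 and 24 in can and 123.8, 119.0 and 108.8 in control. The signal was at background in arrays labelled comr, where it was at least 5.77-fold lower (adjusted p 1.74e-09), and 1 of 3 can arrays was above the floor, at a change of -2.02 ± 0.15 (adjusted p 8.88e-08). Trf5 went the other way: it read 76.6, 78.9 and 68.9 in arrays labelled comr, 29.4, 12.0 and 24.5 in can and 3.2, 2.9 and 3.2 in control. It was at least 3.68-fold higher in arrays labelled comr (adjusted p 1.01e-07), while in can 2 of 3 arrays were above the floor and it was not called (0.96). On arm 2L, 2 protein-coding genes (Gr23a and Tmtc1) lie between Trf4 and Trf5 in the gene table of assembly Release 6 plus ISO1 MT.

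**Figure D3:**
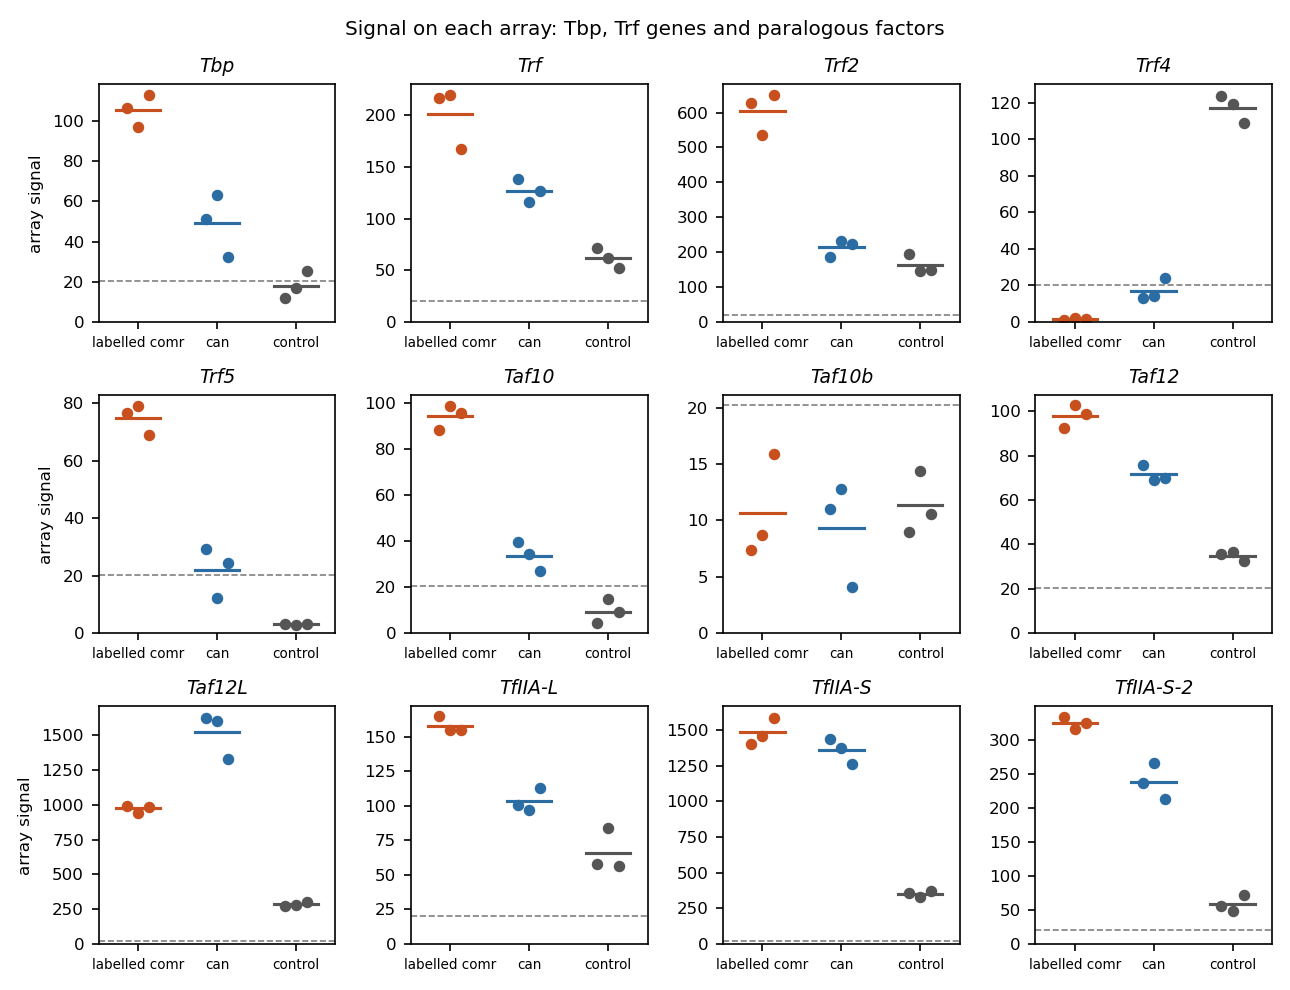
Array signal (linear axes from 0, arbitrary units) of Tbp, the Trf genes and paralogous factors on each array of labelled comr, can and control, with group means as bars and the background floor of 20.3 dashed. Trf4 is bright only in control (108.8 to 123.8), Trf5, Taf10 and Trf2 stand highest in arrays labelled comr, and Taf12L stands highest in can (1328.5 to 1626.2).

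The mutants were also set against each other, a comparison in which the control arrays enter only through the shared estimate of the spread. Past the adjusted p, with no minimum fold, 31 of the 59 genes were higher in arrays labelled comr, against 24.9% of all probe sets, and 9 were higher in can, against 24% of all. With the 2-fold minimum 5 genes were called higher in arrays labelled comr, or 8.47%, against 4.46% of all probe sets. By limma none was called higher in can, where 10.2% of all probe sets were; 9 of the genes passed an unadjusted p under 0.05 in that direction. The median difference was 0.37, and over all probe sets -0.01.

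The 5 called genes were MED24 (1.49 ± 0.17, adjusted p 1.74e-05), Trf2 (1.43 ± 0.12, adjusted p 9.47e-07), Trf5 (1.29 ± 0.17, adjusted p 5.77e-05), Taf10 (1.16 ± 0.16, adjusted p 8.65e-05) and MED17 (1.03 ± 0.15, adjusted p 1.38e-04). They were called under all 5 scalings. The call of MED17 was lost without labelled comr replicate 3 (0.97) or can replicate 3 (0.97), and when the arrays were given weights. With an offset of 64 the calls of MED17, Taf10 and Trf5 were lost. Close below the threshold were MED16 (0.96), MED30 (0.95), Polr1H (0.93) and Tbp (0.93), each of which crossed it when 1 array was left out: MED16 without labelled comr replicate 3 (1.03) or can replicate 3 (1.01), MED30 without labelled comr replicate 1 (1.04), Polr1H without can replicate 1 (1.02) and Tbp without can replicate 2 (1.09). Of the 9 genes past the adjusted p with can higher, Taf12L, MED18, Polr1E, Polr2J, TfIIEbeta, Taf3, Taf9 and MED27 stood at -0.63 to -0.28. The other was Trf4, which was under the floor on every array labelled comr and above it on 1 of 3 can arrays, so that its difference between the mutants was not measured.

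**Figure D4:**
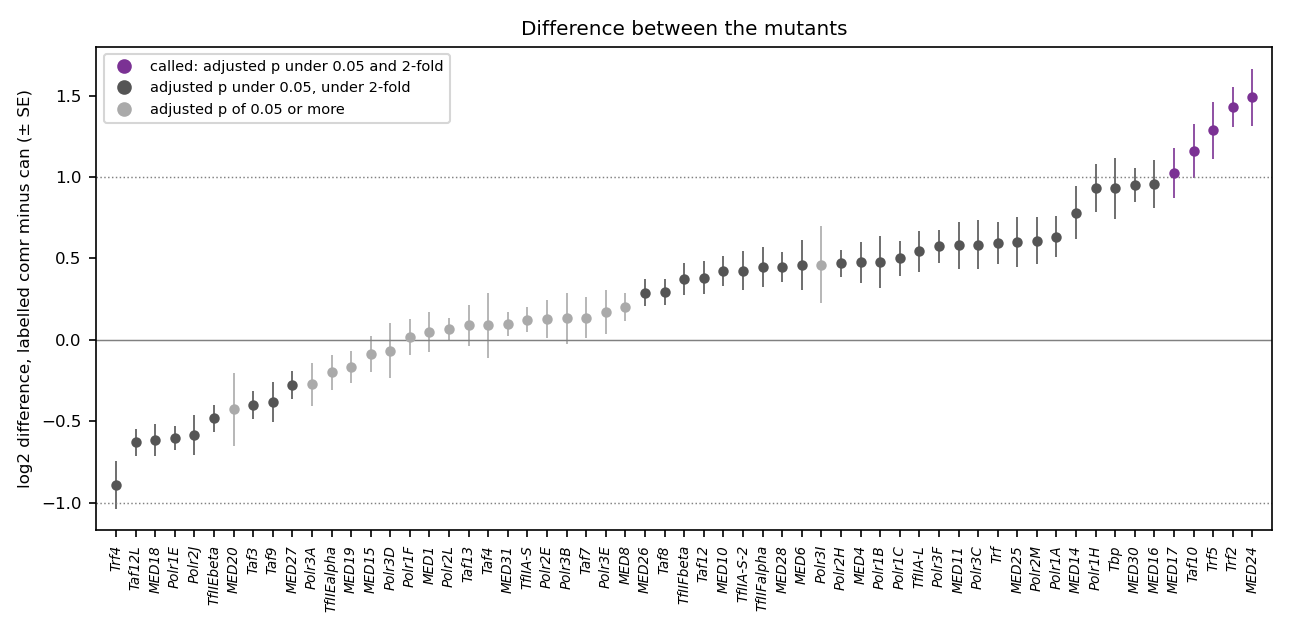
Difference between the mutants, labelled comr minus can, in log2 of signal plus 16 with its SE, for each tested transcription machinery gene in rising order (3 arrays a group; dotted lines mark 2-fold). MED17, Taf10, Trf5, Trf2 and MED24 lie above 1, and Taf12L lies at -0.63; the point at the far left is Trf4, which was under the floor on all but 1 array of the mutants.

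Factors that act around the same machinery were counted in the same way, from lists that partly go back to earlier results of these data. The repressors of Tbp, NC2alpha and NC2beta, and the promoter factor Dref rose in both mutants. NC2beta read 401.4, 413.9 and 483.1 in arrays labelled comr, 233.9, 225.4 and 224.3 in can and 68.6, 110.2 and 95.1 in control, without overlap. Of 18 tested elongation and pausing genes 12 rose in arrays labelled comr and 11 in can, and of 10 genes of the histone acetyltransferase complexes SAGA and ADA 6 rose in arrays labelled comr and 4 in can. For comparison, 28.8% of all probe sets were higher in arrays labelled comr and 20.7% in can. Of 12 tested genes of Integrator, which cleaves nascent small nuclear and other RNAs, 4 were called higher in arrays labelled comr (median change 0.67), a share near that of all probe sets; in can none of the 12 was called by limma (median 0.61), although 9 passed an unadjusted p under 0.05 upward. Under ribosomal protein centring the genes higher in arrays labelled comr numbered 4 for elongation, 3 for SAGA and ADA, 2 for Integrator and 2 for the Tbp regulators. In can the list that still held higher genes was TFIIH, with 4 higher and 1 lower. In each mutant 1 elongation gene and 1 Integrator gene were then lower. Of all probe sets, 9.35% were then higher and 32.8% lower in arrays labelled comr. In can 2.64% were higher and 34.1% lower.

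The share called higher was also counted by signal. In the brighter bins no transcription machinery gene had all its control arrays under the floor, but other probe sets could, as Xpd did (14, 17.8 and 17.6 in control). The mean signal included the mutant arrays, so genes that rose in the mutants moved towards the brighter bins. When all tested probe sets were put into 4 equal bins by mean signal, 19 of the 22 transcription machinery genes in the brightest bin were higher in arrays labelled comr, against 35.1% of all probe sets there, and 15 were higher in can, against 32%. In the next bin 11 of 18 were higher in arrays labelled comr, against 39.5%, and 6 in can, against 28.9%. In the bin below that 8 of 11 were higher in arrays labelled comr, against 28.4%, and 2 in can, against 16.2%. In both of these bins the can count was near the share of all probe sets. In the dimmest bin 4 of 8 were higher in arrays labelled comr, against 12.2%, and 1 in can, against 5.65%. The dimmer bins held the genes whose control arrays were all at or under the floor. By chromosome arm, 24.5% to 33.3% of all probe sets were higher in arrays labelled comr and 19.2% to 23.1% in can. The transcription machinery genes higher in arrays labelled comr were 7 of 12 tested on 2L, 6 of 6 on 2R, 10 of 14 on 3L, 14 of 18 on 3R, 1 of 2 on chromosome 4 and 4 of 7 on X. In can they were 3 of 12 on 2L, 4 of 6 on 2R, 7 of 14 on 3L, 6 of 18 on 3R, 1 of 2 on chromosome 4 and 3 of 7 on X.

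For 3 further genes the only tested probe set also carries the symbol of a second gene, so its signal cannot be given to Taf11, Polr3K or MED9 alone. The one shared by Taf11 and Gdi read 81.5, 81.4 and 50.2 in arrays labelled comr, 19.9, 23.8 and 39.1 in can and 3.9, 10.1 and 2.0 in control. That of Polr3K and Tcs1 was called higher in can (1.16) and not in arrays labelled comr (0.90), and that of MED9 and CG42518 was called in neither.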

How the data were processed

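The deposited values are the signal intensity of each of 14010 probe sets, which the authors computed in GCOS 1.4 according to the submitters' processing notes. On each array the mean without the lowest and highest 2% was 100, so the authors had scaled the arrays to a common level; the sources used here name neither the algorithm nor its background step. No further normalisation was applied. Of the probe sets 44 were controls, and 12443 carried 1 gene symbol, 327 several and 1196 none.

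Here log2(signal + 16) was tested for 9776 probe sets of 8229 genes, once the dimmest 30% by mean (below a signal of 14.1) were removed. All 9 arrays were fitted together in limma 3.58.1 under R 4.3.3 with an intensity trend, and two-sided p-values were adjusted by Benjamini-Hochberg. Calls needed an adjusted p under 0.05 and 2-fold. The labels do not say whether replicates were separate dissections, so the p-values reflect no more than array-to-array spread, which may be technical, and 3 arrays a group limit the precision. Same-numbered arrays did not deviate together (correlations of -0.13 to 0.19 in 9 pairs, 4 over 0.1), so no block was used.

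Genes given array by array were those called lower or called between the mutants, and the 3 with the largest called change in each class; others shown in full were added after their values were seen. The genes and lists were chosen with earlier results of these data known. The alternatives were other offsets, filters, scalings, thresholds and models, a replicate block, a second probe set and each array left out.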

Additional observations from a re-analysis of the deposited data

Results flagged for a closer look

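In 5 transcription machinery genes the change against control differed between the mutants by the test of labelled comr minus can, which does not depend on the control means. The difference was 1.49 for MED24, 1.43 for Trf2, 1.29 for Trf5, 1.16 for Taf10 and 1.03 for MED17, all higher in arrays labelled comr. Among these genes Trf2 overlapped control in can, and Taf10 and Trf5 were at background in control. The names on the arrays labelled comr disagree with one another, and their background chromosomes differ from those of the other groups, which cannot be told apart from the mutation. Only the can genotype names w, and this cannot be told apart from the mutation either.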

How the results depend on the processing

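The main counts of tested genes were 42 higher and 1 lower in arrays labelled comr, 24 higher and 1 lower in can, and 5 higher and 0 lower for labelled comr against can. In arrays labelled comr the count higher was 15 with ribosomal protein centring (2 lower), 28 with an offset of 64 and 11 at 4-fold. Of all probe sets, 9.35% (32.8% lower), 15.3% and 6% were higher under those settings, in that order. In can it was 37 with an offset of 1, 15 with an offset of 64, 6 with ribosomal protein centring (3 lower), 49 with no minimum fold and 7 at 4-fold. The shares of all probe sets higher in can were 29%, 9.68%, 2.64% (34.1% lower), 47.2% and 2.3% in the same order. Between the mutants it was 10 with an offset of 1 (1 lower), 2 with an offset of 64, 3 with the lowest 50% left out, 8 with ribosomal protein centring, 9 with array median or spiked control centring, 31 with no minimum fold (9 lower) and 0 at 4-fold. The shares of all probe sets higher were 7.05% with an offset of 1 (13.8% lower) and 1.53% with an offset of 64. With the lowest 50% left out the share was 4.85%, and with ribosomal protein centring 6.36%. With array median centring it was 6.94% and with spiked control centring 7.9%. With no minimum fold 24.9% were higher and 24% lower, and at 4-fold 0.286% were higher. With the lowest 50% left out no gene was called lower in either mutant (0 and 0), since Trf4 was then not tested. Of all probe sets 18.6% were lower in arrays labelled comr and 15.1% in can at that setting. The median change in can reversed to -0.037 under ribosomal protein centring, and so did TfIIFalpha (-0.15), MED4 (-0.06) and MED8 (-0.0012) in can; the cause was not tested beyond the shift of the all-probe median. Leaving out each array in turn gave 41 to 43 genes higher and 1 lower in arrays labelled comr (median 1.35 to 1.41), 24 to 28 higher and 1 lower in can (median 0.90 to 0.99), and 5 to 6 higher and 0 lower between the mutants (median 0.28 to 0.38). With a replicate block the counts were 42 higher in arrays labelled comr, 24 in can and 5 between the mutants, and no call changed; the replicate numbers did not pair the arrays. With each group's array of highest accessory gland signal dropped, an alternative chosen after seeing the data, they were 41 in arrays labelled comr, 24 in can and 6 between the mutants, where MED17 was at 0.96 and no longer called. Near the 2-fold line, 8 genes in can lay within 0.1 below it and 2 within 0.1 above. Calls gained with 1 array left out, beside those named above, were Taf8 in arrays labelled comr (1.00 to 1.01 without labelled comr replicate 1, control replicate 2 or control replicate 3) and, in can, MED31 (1.02 without can replicate 2, 1.01 without control replicate 3), Polr1F (1.06 without can replicate 3, 1.02 and 1.07 without control replicates 2 and 3), Polr2H (1.00 to 1.06 without can replicate 1 or 2 or control replicate 2 or 3), Taf10 (1.08 without can replicate 3, 1.13 without control replicate 2), Tbp (1.12 without can replicate 3, 1.08 without control replicate 3), TfIIEalpha (1.01 to 1.07 without can replicate 1 or 2 or control replicate 3) and Trf5 (1.17 without can replicate 2). Signal over background limits the 14 genes whose control arrays were all at or under the floor, 4 of which could not be tested.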
